A study of Homo sapiens with 14 samples.

Results

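The transcripts of 6 human genes that act on methylated adenosines in RNA were examined: the demethylases FTO and ALKBH5, the methyltransferases PCIF1, METTL5 and ZCCHC4, and TRMT112, a partner protein of METTL5. Their sites were taken by gene name. The deposited table lists 128 adenosines in these genes, of 407343 in all, and the 6 are among 13756 genes. The measurement was GLORI, a sequencing chemistry that converts adenosines without a methyl group, which then read as G, while N6-methyladenosine (m6A) resists conversion and reads as A. Levels are given as the percentage of A among the A and G reads at a site.

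Polyadenylated RNA came from 6 cancer cell lines given the solvent DMSO for 24 h, namely A549 (lung), CAOV3, COV644, EFO21 and SKOV3 (ovary) and OE21 (oesophagus). CAOV3 was also given STM3675 at 1 uM for 24 h. By its title the series is about inhibiting METTL3, which catalyses most m6A formation in messenger RNA. Every group has 2 libraries, 14 in all, and the labels name no genetic change in any group. These are established lines in culture, and nothing in the labels says that the libraries of a group came from separate cultures, so p-values measure only the spread between these libraries, which may be technical.

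METTL3, with METTL14 and accessory proteins, methylates messenger RNA mostly at the central adenosine of the motif DRACH, where D is A, G or T, R is A or G, and H is A, C or T. FTO and ALKBH5 belong to the AlkB family of dioxygenases and oxidise the methyl group away. The other members write N6-methyl marks elsewhere: PCIF1 on the adenosine next to the cap, METTL5 on the RNA of the small ribosomal subunit and ZCCHC4 on that of the large subunit. TRMT112 has no methyltransferase activity of its own and stabilises METTL5 and several other methyltransferases.

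The libraries held between 14047302 and 28663588 A and G reads at all listed sites. The median level at sites outside DRACH, which serves here as a measure of unconverted adenosines, was 3.33% to 4.14% in the COV644 and OE21 libraries and 10.3% to 15.8% in the other DMSO libraries. With STM3675, whose libraries had no part in the listing of sites, it was 8.85% and 8.89%. Markers of lineage followed the labelled tissues only in part. The squamous factor TP63 had a mean coverage at listed sites of 289.6 CPM, counts scaled to the library's total and its TMM factor from edgeR, in OE21 and under 3 CPM in every other group. The ovarian factor PAX8 stood at 80.0 CPM in CAOV3, but WT1 (0.027 CPM), EMX2 (0.053), MECOM (0.48) and SOX17 (3.70) were low there. PAX8 was higher in SKOV3 (361.7 CPM) and EFO21 (244.9), but in COV644 (22.4) it was near its value in OE21 (22.8). MECOM and SOX17 were higher in COV644, EFO21 and SKOV3 than in A549 or OE21. The other ovarian markers did not follow this. WT1 was highest in the lung line A549 (8.37 CPM) and at most 1.72 CPM in the other lines with DMSO. EMX2 stood at 42.5 CPM in EFO21 and at most at 0.26 CPM in the other lines. PECAM1, taken as a marker of other cells, stood at 519.2 CPM in EFO21 and at most at 9.60 CPM in the other lines. COL1A1, taken as another such marker, stood at 154.8 CPM in COV644, 97.6 in SKOV3 and 83.8 in CAOV3 with DMSO. In A549, EFO21 and OE21 it was 19.5 CPM or below. Epithelial markers varied too. EPCAM ran from 3.41 CPM in A549 to 430.4 in CAOV3, and CDH1 from 6.44 in SKOV3 to 923.1 in COV644. KRT8 and KRT18 were lowest in OE21 (1.36 and 12.4) and highest in A549 (229.6 and 328.9). The lung factor NKX2-1 was near 0 in A549 (0.11 CPM) and higher in COV644 (19.9 CPM) and OE21 (12.2 CPM). MUC16, NAPSA, SFTPB, SFTPC and PTPRC had no listed site under these names, so they have no coverage value.

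The listed sites were unevenly shared among the members, as a site was listed when at least 1 DMSO library had 20 reads and a level of 25% there. FTO held 37 sites (13 in DRACH), ALKBH5 33 (10), PCIF1 33 (9), ZCCHC4 17 (3), METTL5 6 (0) and TRMT112 2 (0). DRACH sites thus made up 27.3% of the members' sites, against 38.4% of all listed sites. A single DMSO library reached the listing level at 99 of the 128 sites. Of the 35 DRACH sites, 17 lay in last exons, 14 in internal exons and 4 in first exons, where all genes had 65.6% in last, 27.8% in internal and 3.86% in first exons. None of the 128 was among the first 10 nt of a first exon, where the cap-adjacent mark that PCIF1 writes would be. Positions are those of the table on GRCh38, which gives the exon but was not used here to tell coding from untranslated parts.

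The sites on which the results turn are shown as the 5 bases of the table around each measured adenosine, 5′ to 3′ on the transcript strand, with the measured adenosine in capitals. They are DRACH sites of FTO, ALKBH5, PCIF1 and ZCCHC4 whose levels are described next, and the site of TRMT112 that fell.
FTO chr16 53825982, nucleotide 119 of exon 3: ggAcc
FTO chr16 53826315, nucleotide 452 of exon 3: ggAca
FTO chr16 54112262, nucleotide 501 of last exon 9: agAct
ALKBH5 chr17 18185003, nucleotide 1176 of first exon 1: tgAct
ALKBH5 chr17 18208341, nucleotide 123 of last exon 4: ggAct
ALKBH5 chr17 18208420, nucleotide 202 of last exon 4: gaAct
ALKBH5 chr17 18208641, nucleotide 423 of last exon 4: ggAca
ALKBH5 chr17 18209787, nucleotide 1569 of last exon 4: gaAct
ALKBH5 chr17 18209820, nucleotide 1602 of last exon 4: ggAct
PCIF1 chr20 45947709, nucleotide 186 of last exon 17: ggAct
PCIF1 chr20 45947798, nucleotide 275 of last exon 17: ggAct
PCIF1 chr20 45947807, nucleotide 284 of last exon 17: ggAct
ZCCHC4 chr4 25369239, nucleotide 211 of last exon 13: ggAct
TRMT112 chr11 64316927, nucleotide 42 of last exon 4, minus strand: ggAcg
All but the last fit DRACH, and the TRMT112 site misses it only at the fifth base. Over the 35 DRACH sites of the members, ggAct was the most frequent sequence with 7 sites. Next came ggAcc with 5 sites, ggAca with 5 and gaAct with 5.

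In CAOV3 with STM3675, m6A was lower at sites of ALKBH5, ZCCHC4 and TRMT112 than with DMSO, and it was called higher at no member site that could be tested. A site was tested where all 4 CAOV3 libraries had 20 reads, which 37 of the 128 sites met. A quasi-binomial model called 9 of the 37 lower at a Benjamini-Hochberg adjusted p under 0.05, adjusted over all sites tested. It called 0 higher, and 0 were higher at an unadjusted p under 0.05, in this model or in limma. Over all sites tested, 35.2% were called lower and 0.309% higher. Among DRACH sites, 8 of 11 in the members were lower, against 73.9% over all genes, and outside DRACH 1 of 26, against 7.87%. The members' shares were thus near those of all genes.

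FTO, an RNA demethylase, lies at chr16:53703963-54121941. It gave 9 of its 13 DRACH sites in internal exon 3, which is 628 nt long. Reads were few in CAOV3, so that none of these DRACH sites could be tested singly there. The site at 53825982 stood at 53.8% of 13 reads and 31.2% of 16 with DMSO, and at 7.69% of 26 and 9.09% of 11 with STM3675. In the other lines it ranged from 28.8% in an A549 library to 69.2% in an EFO21 library. The site at 53826315 was methylated in most reads of every DMSO library, between 67.6% (OE21) and 100% (3 libraries), on 3 to 37 reads. With STM3675 it had A in 0% of 3 reads, too few for an upper limit, and in 20.0% of 10 reads. In last exon 9, the site at 54112262 stood at 66.7% of 9 reads and 64.3% of 14 with DMSO, and at 14.3% of 14 and 5.00% of 20 with STM3675. The CAOV3 values with DMSO lay above those of all 10 libraries of the other lines, which ran from 11.8% to 42.7%. These 3 sites were chosen after their values were seen.

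The DRACH sites of FTO were therefore summed without a minimum of reads, an analysis added after seeing the data. FTO stood at 36.3% of 113 reads and 33.3% of 150 with DMSO in CAOV3, and at 9.05% of 232 and 7.32% of 164 with STM3675. The groups did not overlap, and the difference of 26.6 percentage points had an adjusted p of 0.000206. The only FTO site with enough reads for the single-site test lies outside DRACH, in exon 6 at 53879868 (atAtt), and stood at 27.3% and 6.90% with DMSO and 5.56% and 3.57% with STM3675 (adjusted p = 0.173). At 2 FTO sites outside DRACH the mean with DMSO in CAOV3 was 50% or more, on almost no reads. They were 53826068 (tgAac), with A in 100% of 1 read and 0% of 7, and 54111917 (gaAgg), with 50.0% of 4 reads in 1 library and no read in the other.

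ALKBH5, the other demethylase, lies at chr17:18183828-18209954 and carried 7 of the 9 sites that fell. It also held 20 of the 37 tested sites and 8 of the 11 tested DRACH sites, against 0 in FTO and 1 in PCIF1. Of its 8 tested DRACH sites 7 fell, beside 73.9% over all genes. Its most methylated site, 18208420, stood at 89.3% of 121 reads and 80.2% of 187 with DMSO. With STM3675 it stood at 12.5% of 216 and 9.44% of 180 (adjusted p = 4.01e-54). At 18209820, near the end of the last exon, the level went from 69.7% and 67.9% to 3.88% and 9.35% (adjusted p = 7.55e-18). The first-exon site at 18185003, with 10 nt of the exon after it, went from 45.3% and 49.5% to 10.5% and 8.33% (adjusted p = 3.36e-20). The libraries of the groups did not overlap at any of these sites.

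Of the weaker ALKBH5 sites, 18209787 fell from 40.5% and 35.8% to 6.25% and 7.78%, and 18208341 from 43.5% and 44.4% to 9.84% and 0% (0 of 48 reads, which allows up to 6.25% at a limit of 3 counts). The highest level left at a fallen ALKBH5 site was at 18208641, with 13.0% and 12.9%, where the DMSO libraries themselves lay apart at 21.6% and 44.4% (adjusted p = 0.0109). The site 18208308 (gaAct) fell from 27.1% and 18.8% to 6.67% and 11.2% (adjusted p = 0.00607). The first-exon site 18184860 (ggAcc) did not pass the test, at 13.9% and 14.6% against 9.31% and 7.81% (adjusted p = 0.152). The calls at 18185003, 18208420, 18209787 and 18209820 held under every alternative in which the site was tested, and those at 18208308 and 18208641 were each lost under 7. Left-out libraries ended the call at 18208308 (each of the 4, adjusted p up to 0.211), at 18208641 (DMSO replicate 2, where the fall was 8.67 points, and either STM3675 library) and at 18208341 (DMSO replicate 1, adjusted p = 0.0535).

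PCIF1, the cap-adjacent methyltransferase, lies at chr20:45934683-45948020 and holds 6 of its 9 DRACH sites within nucleotides 180 to 326 of its last exon, which is 497 nt long. Its site at 45947798 was close to fully methylated in all 6 lines, with 83.3% (CAOV3) as the lowest, 92.2% as the median and 100% (SKOV3) as the highest DMSO library, on 9 to 68 reads. With STM3675 it stood at 10.5% of 19 reads and 4.55% of 22. Pooled over libraries, the level was 85.2% (95% Wilson interval 67.5% to 94.1%, 27 reads) with DMSO and 7.32% (2.52% to 19.4%, 41 reads) with STM3675. Intervals cover counting error only.

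The neighbouring PCIF1 sites, with the same 5 bases, kept more A reads. At 45947807, which is 9 nt downstream, the pooled level was 88.9% of 9 reads with DMSO and 37.5% of 24 with STM3675 (21.2% to 57.3%). At 45947709 it was 75% of 20 reads and 38.1% of 21 (20.8% to 59.1%). The intervals with STM3675 at both lay above that at 45947798, and the difference between these sites was not tested. None of the 3 had enough reads for the site test, and they were chosen after their values were seen. The only PCIF1 DRACH site tested, 45947849 (tgAca), stood at 30.6% and 20.6% with DMSO and at 8.57% and 16.0% with STM3675 (adjusted p = 0.242). Summed over all its DRACH sites, PCIF1 stood at 35.8% and 34.1% with DMSO and at 15.0% and 18.3% with STM3675 (adjusted p = 0.00329).

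**Figure D1:**
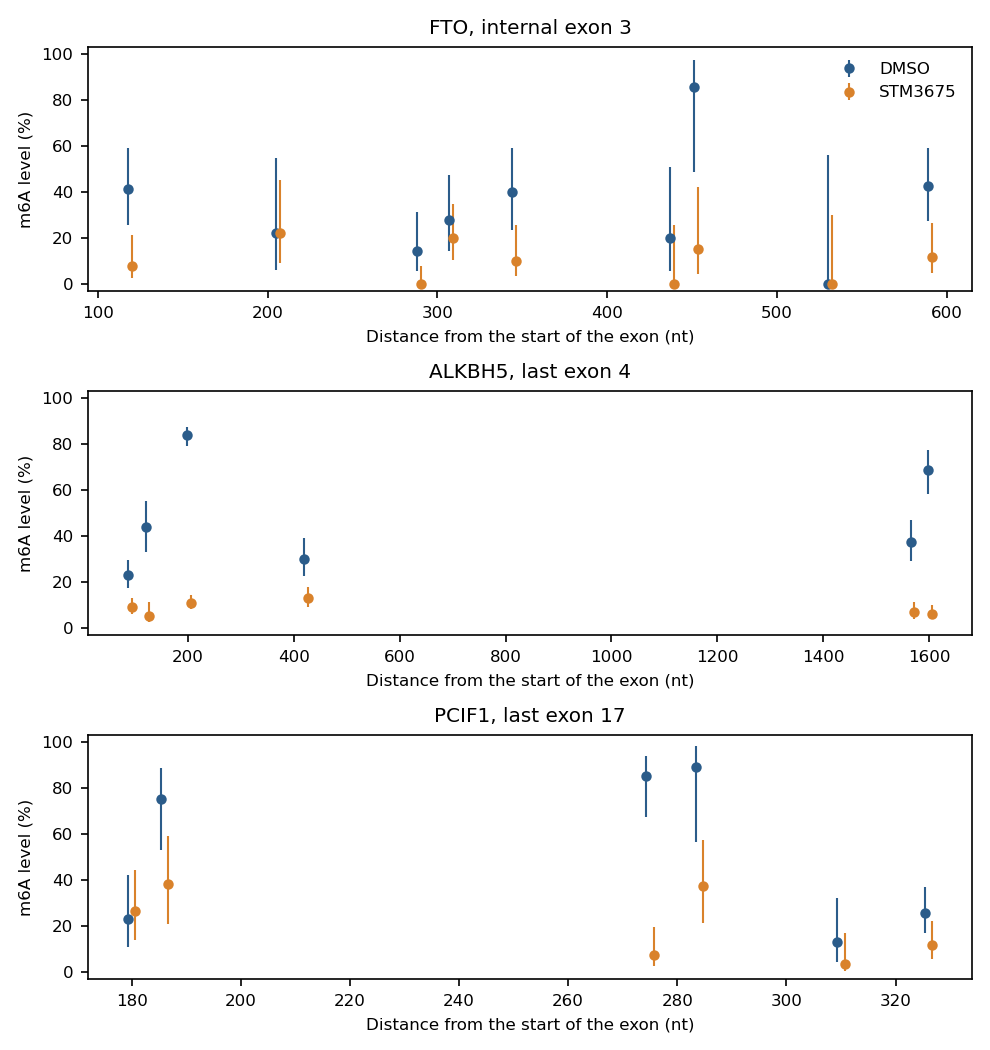
m6A level (percent of A and G reads that are A, pooled over the 2 libraries of a group) at DRACH sites of 3 exons in CAOV3, against distance from the start of the exon in nt. Points are sites, bars are 95% Wilson intervals of counting error, blue is DMSO and orange is STM3675. In ALKBH5 every site falls below 14% with STM3675, whereas the PCIF1 sites at nucleotides 186 and 284 lie at 38.1% and 37.5% and those of FTO rest on few reads.

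METTL5 (chr2:169811757-169824905) and its partner TRMT112 (chr11:64316460-64318596) had no listed DRACH site. METTL5 had 2 tested sites, both outside DRACH. The site at 169819562 (agAag) is the last nucleotide but 1 of exon 4 and stood at 20.8% and 20.4% with DMSO and 16.3% and 0% with STM3675 (0 of 26 reads, which allows 11.5%; adjusted p = 0.375). The site at 169824575 (ggAac) in the first exon stood at 0% of 27 reads and 6.67% against 4.55% and 0% of 20 reads (adjusted p = 0.834).

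At TRMT112 64316927, the ggAcg site of the last exon, the level was 23.6% of 394 reads and 25.1% of 342 with DMSO. With STM3675 it was 14.2% of 458 reads and 13.8% of 362 (adjusted p = 0.000227). The groups did not overlap. Of all tested sites with these 5 bases, 48.1% were called lower, and their median level went from 26.0% to 12.7%. The TRMT112 call was lost under 5 of 10 alternatives, with adjusted p-values up to 0.231 (limma), among them those without STM3675 replicate 1 (0.0602) and replicate 2 (0.0566). The median level outside DRACH was also lower with STM3675 than with DMSO, as given above, and with it subtracted the difference was -9.29 percentage points in place of -10.4 (adjusted p = 0.0584). The other TRMT112 site, 64317107 (atAtg), stood at 6.83% and 6.85% against 8.93% and 10.0% (adjusted p = 0.581).

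ZCCHC4 lies at chr4:25312774-25370383. Its main site, 25369239 in the last exon, stood at 46.4% of 28 reads and 50.0% of 30 with DMSO, and at 3.23% of 31 and 16.1% of 31 with STM3675 (adjusted p = 0.000683). The groups did not overlap, and the call was lost under 5 of 9 alternatives, among them those without DMSO replicate 1 (adjusted p = 0.0542), DMSO replicate 2 (0.0767) or STM3675 replicate 1 (0.125). The neighbouring DRACH site 25369338 (agAca), 99 nt downstream, was low with DMSO and did not pass, at 6.67% and 12% against 12.9% and 14.3% (adjusted p = 0.701). Its highest value was in A549, with 37.5% and 24.5%. The sites outside DRACH in exon 4 did not pass either. They were 25333217 (agAga), at 10.0% and 11.1% against 9.68% and 8.33%, and 25333234 (acAtg), at 1.64% and 3.77% against 3.13% and 3.70%.

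**Figure D2:**
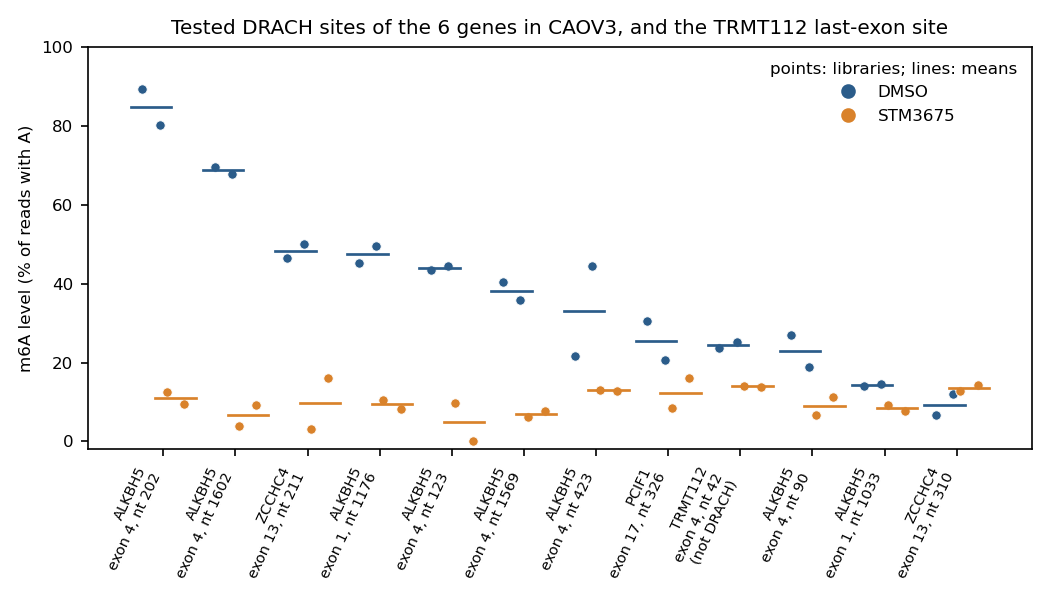
m6A level (percent of A and G reads that are A) in each CAOV3 library at the 11 tested DRACH sites of the 6 genes and at the TRMT112 last-exon site, named by gene, exon and nucleotide of the exon. Points are libraries, lines are means, blue is DMSO and orange is STM3675. The DMSO levels spread from 6.67% to 89.3%, and all STM3675 levels lie at 16.1% or below.

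Among the 4 members with DRACH sites, the DRACH sums with STM3675 were lower in FTO and ALKBH5 than in PCIF1 and ZCCHC4. This difference between genes was not tested, and the ZCCHC4 sum rested on 94 and 71 reads. The sums of FTO (9.05% and 7.32%) and ALKBH5 (9.49% and 8.93%) lay near the median outside DRACH of the same libraries (8.89% and 8.85%). They are therefore no measure of m6A left. The members had 7 tested DRACH sites at 30% or more with DMSO, all in ALKBH5 except the main site of ZCCHC4. The level with STM3675 there was at a median of 0.184 of the DMSO level, against 0.174 over 45660 such sites of all genes. These levels include unconverted adenosines too, so this ratio is likewise no measure of m6A left. Summed over every listed DRACH site, ALKBH5 went from 43.0% ± 4.09 (SD, n = 2) to 9.21% ± 0.396, and ZCCHC4 from 26.0% ± 8.00 to 12.2% ± 0.689 (adjusted p = 0.0403). With FTO and PCIF1, all 4 members with DRACH sites were lower by this sum, as were 88.4% of all genes. Summed over the sites with 20 reads only, DRACH or not, 2 of 6 members were called lower, ALKBH5 and TRMT112, and 0 higher, against 81.7% of all genes lower and 0.0623% higher. ALKBH5 then went from 34.2% to 10.2%, and TRMT112 from 19.2% to 12.8% (adjusted p = 0.0100). The TRMT112 call was lost without either STM3675 library (adjusted p = 0.0911 and 0.0677). Outside DRACH, the 26 tested sites of the members had a median of 14.7% with DMSO and 11.4% with STM3675. Only DMSO levels entered the listing of sites, which can raise the DMSO median, and how much of this difference it makes was not tested. Of the tested member sites, DRACH or not, 25 were listed because of a line other than CAOV3, and 9 of these were called lower.

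**Figure D3:**
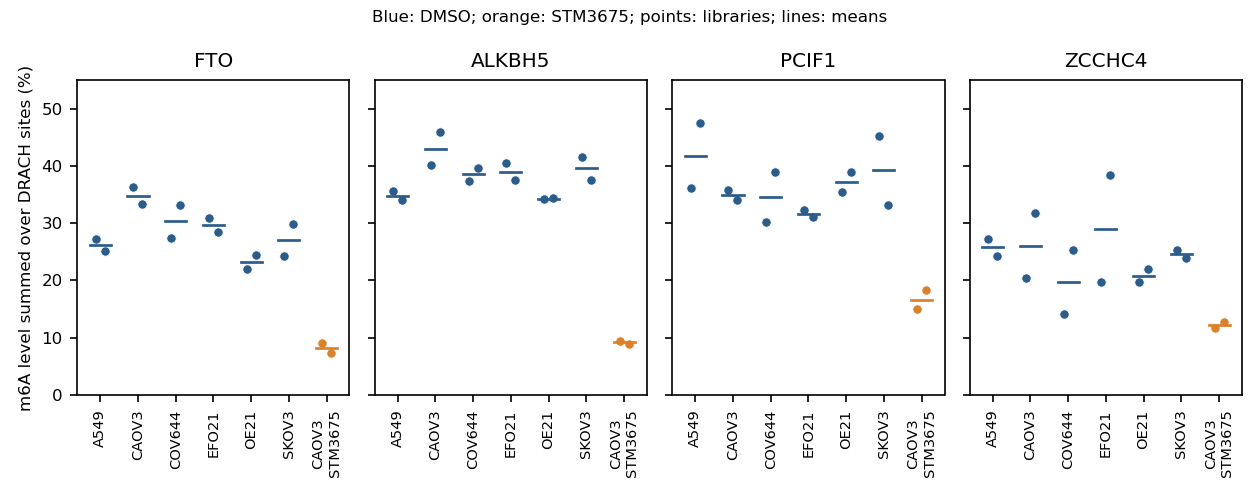
m6A level summed over all listed DRACH sites of FTO, ALKBH5, PCIF1 and ZCCHC4 (percent of A and G reads that are A) in each of the 14 libraries, by cell line. Points are libraries, lines are means, blue is DMSO and orange is CAOV3 with STM3675. The STM3675 libraries lie below all DMSO libraries in every panel, for instance at 9.05% and 7.32% in FTO against at least 22.1%.

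Among the 6 lines with DMSO, the member sites that differed included 2 DRACH sites, both of ALKBH5. Sites needed 20 reads in all 12 libraries, which 25 of the 128 met, and 8 were called, against 39.5% of all sites tested. In DRACH 2 of 7 were called (39.1% over all genes), and outside DRACH 6 of 18 (40.0%). At ALKBH5 18208420 the line means ran from 57.3% ± 0.181 (SD, n = 2) in OE21 to 84.7% ± 6.39 in CAOV3 (adjusted p = 7.03e-05). The other lines lay between 67.4% in COV644 and 73.0% in SKOV3 and overlapped with each other. At the first-exon site 18185003, OE21 was again the lowest with 30.0% and 28.5%, followed by A549 with 30.9% and 34.1%. The other 4 lines stood between 41.0% and 57.5% there, with EFO21 the highest (adjusted p = 4.92e-05). Neither site passed with limma (adjusted p = 0.120 and 0.0919). Among A549, CAOV3, EFO21 and SKOV3 alone, the quasi-binomial model still called 18185003 (adjusted p = 0.00514) but not 18208420.

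ALKBH5 sites in the same last exon did not all rank the lines alike. At 18209820, CAOV3 was highest with 69.7% and 67.9%, and the other lines lay between 48.0% and 60.0% (adjusted p = 0.353). At 18209787 the libraries ran from 24.5% in COV644 to 51.7% in SKOV3 (adjusted p = 0.560). Summed over its DRACH sites, ALKBH5 was low in OE21 (34.2% and 34.4%) and A549 (35.7% and 34.0%), which overlapped. By its mean it was highest in CAOV3 (40.1% and 45.9%), which overlapped with EFO21 and SKOV3. It was the only member of 4 called by this sum (adjusted p = 0.0162, against 51.7% of all genes called). FTO gave 23.3% ± 1.69 in OE21 to 34.8% ± 2.09 in CAOV3 (adjusted p = 0.106). PCIF1 ran from 31.7% in EFO21 to 41.8% in A549 and ZCCHC4 from 19.7% in COV644 to 29.1% in EFO21, with adjusted p-values of 0.361 and 0.886.

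**Figure D4:**
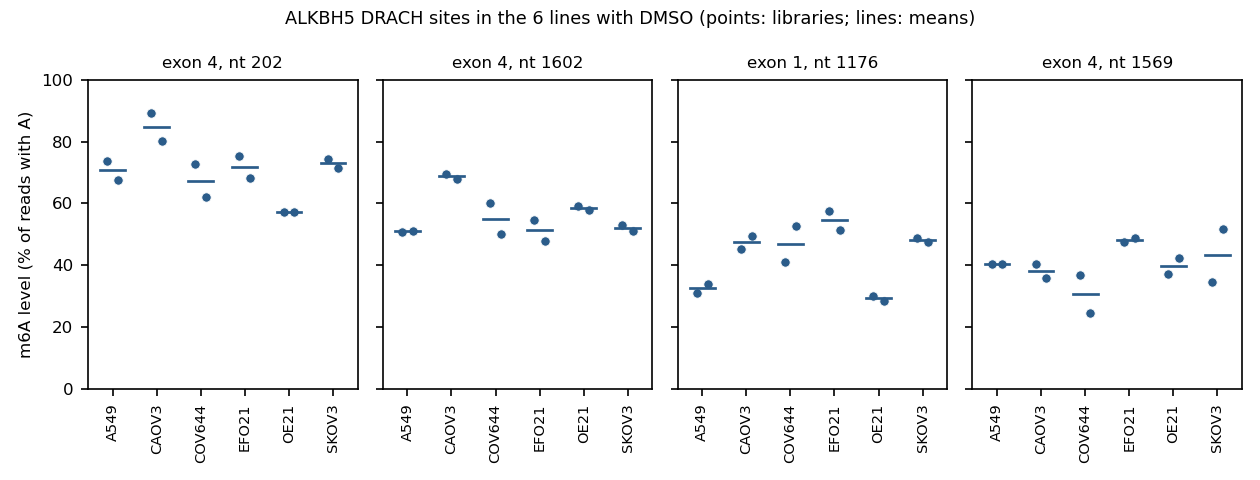
m6A level (percent of A and G reads that are A) at 4 DRACH sites of ALKBH5 in the 12 DMSO libraries, by cell line. Points are libraries and lines are means. At nucleotide 202 of exon 4 OE21 lies lowest at 57.4% and 57.1%, and at nucleotide 1176 of exon 1 OE21 and A549 lie between 28.5% and 34.1%, below the other 4 lines.

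Each of the 6 called sites outside DRACH was lowest in COV644 or OE21, the lines with the lowest median outside DRACH, and at 4 of the 6 the means of both lay below those of the other 4 lines. With that median subtracted, ALKBH5 18209041 (adjusted p = 0.00815) and PCIF1 45947275 (0.0275) were still called. METTL5 169819562 (0.0876), FTO 53879868 (0.147), ALKBH5 18195001 (0.191) and PCIF1 45947945 (0.0630) were not, and with limma none of the 6 passed (0.0636 to 0.390). PCIF1 45947945 (tgAtg) stood at 1.89% and 1.89% in COV644, 3.76% and 2.83% in OE21 and 12.9% and 23.5% in SKOV3 (adjusted p = 0.00140). PCIF1 45947275 (agAgc) was at 0% in both COV644 libraries (28 and 52 reads, which allow 10.7% and 5.77%) and at 12.6% and 25.0% in EFO21 (adjusted p = 0.00312). ALKBH5 18209041 (ccAcg) ranged from 0% of 35 reads and 3.33% in COV644 to 29.5% and 25.0% in EFO21 (adjusted p = 0.0160). METTL5 169819562 ran from 1.67% and 4.00% in COV644 to 20.8% and 20.4% in CAOV3 (adjusted p = 0.0136), and FTO 53879868 from 0% of 41 and of 66 reads in COV644 to 27.3% and 6.90% in CAOV3 (adjusted p = 0.0311). The sixth was ALKBH5 18195001 (acAtc, adjusted p = 0.0330). Listing required a level of 25% in a DMSO library, and 1 library alone listed 85 of the members' 93 sites outside DRACH. At such a site the highest line and the adjusted p rest partly on the value that listed it. All 24 PCIF1 sites outside DRACH were of this kind, and 45947275 was listed by its 25.0% in EFO21. Left-out libraries ended 4 of the 6 calls outside DRACH. The call at FTO 53879868 was lost without CAOV3 replicate 1 (where the range of line means was 8.78 points in place of 17.1, adjusted p = 0.0774), either COV644 library (0.107 and 0.183) or OE21 replicate 2 (0.0908). That at METTL5 169819562 was lost without CAOV3 replicate 2 (0.0526) or COV644 replicate 1 (0.0992), and that at ALKBH5 18209041 without COV644 replicate 1 (0.0915) or EFO21 replicate 1 (0.0793). That at ALKBH5 18195001 was lost without CAOV3 replicate 1 (0.127), COV644 replicate 1 (0.0636), EFO21 replicate 2 (0.0697) or either OE21 library (0.100 and 0.0958). Among A549, CAOV3, EFO21 and SKOV3 alone, 1 of 29 tested member sites was called. TRMT112 64316927 did not pass (adjusted p = 0.0700), with 15.1% and 19.9% in OE21 and 32.2% and 32.1% in EFO21. Summed over tested sites, ALKBH5, PCIF1 and TRMT112 were called among 5 members, against 62.5% of all genes, and 0 were called once the median outside DRACH had been subtracted, nor were any at an unadjusted p under 0.05. The ALKBH5 call was lost without CAOV3 replicate 2 (adjusted p = 0.0586), and that of TRMT112 without A549 replicate 2 or any EFO21 or OE21 library (up to 0.113). With limma, and without that subtraction, PCIF1 (adjusted p = 0.0130), TRMT112 (0.00882) and FTO (0.0154) were called and ALKBH5 was not (0.103).

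Coverage, the A and G reads summed over the listed sites of a gene, is given as CPM and compared within a gene, since it depends on how many sites are listed. Listing used reads and levels of DMSO libraries only. Coverage can therefore lean towards the lines that listed the sites and towards DMSO over STM3675, and how far was not tested. All 6 members differed among the DMSO lines in edgeR's quasi-likelihood test, as did 99.1% of all genes. FTO varied most. It was highest in OE21 (91.0 and 89.1 CPM) and SKOV3 (86.3 and 92.8), which overlapped, lower in EFO21 (67.8 and 71.3) and A549 (68.0 and 60.2), which overlapped too, then COV644 (36.6 and 36.3) and last CAOV3 (14.6 and 18.6). The highest mean was 5.42 times the lowest.

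ALKBH5 had 126.8 and 133.0 CPM in A549, above all other lines. OE21, SKOV3, EFO21 and CAOV3 lay between 68.7 and 88.0 CPM with neighbours in that order overlapping, and COV644 was lowest at 51.1 and 58.0 CPM. PCIF1 was high in EFO21, OE21, A549 and SKOV3 (means of 73.5, 72.6, 64.5 and 59.3 CPM), of which only EFO21 and OE21 overlapped. It was low in CAOV3 (34.2 and 34.8) and COV644 (29.4 and 29.8).

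METTL5 had a mean of 23.7 CPM in OE21 and 17.1 in EFO21, with the lowest in CAOV3 (5.69 and 10.3 CPM), which overlapped with SKOV3 (9.50 and 10.4). TRMT112, its partner, had another order: CAOV3 was highest (29.5 and 26.0 CPM), overlapping with A549 (22.2 and 26.6), and COV644 lowest (6.58 and 9.10). ZCCHC4 was highest in SKOV3 (29.2 and 30.1 CPM) and lowest in EFO21 (9.85 and 10.5), with CAOV3 (22.0 and 19.3) next below SKOV3.

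With STM3675 in CAOV3, coverage fell for ZCCHC4 and METTL5, 2 of 6 members, against 25.7% of all genes called lower and 27.0% higher. ZCCHC4 went from 22.0 and 19.3 CPM to 11.7 and 11.9 CPM, with no overlap. Its log2 fold change was -0.80 (SE 0.13, adjusted p = 0.000621) and stayed past the threshold under all 11 alternatives. METTL5 went from 5.69 and 10.3 CPM to 5.43 and 4.23 CPM, and its log2 fold change was -0.71 (SE 0.27, adjusted p = 0.0487). The METTL5 call was lost under 6 of 11 alternatives, and without DMSO replicate 2, its higher DMSO library, the log2 fold change was -0.22 (adjusted p = 0.460).

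The demethylases did not pass this test. Under the alternatives, FTO was called higher in 4 of 11 and ALKBH5 in 1 of 11. The log2 fold change of FTO ran from 0.20 to 0.73 over them. FTO went from 14.6 and 18.6 CPM to 20.6 and 22.0 CPM, a log2 fold change of 0.36 (SE 0.14, adjusted p = 0.0515), with no overlap between the groups. Without DMSO replicate 2 its value was 0.55 (adjusted p = 0.000405), and without DMSO replicate 1 0.20 (adjusted p = 0.194). ALKBH5 went from 77.4 and 68.7 to 80.9 and 85.1 CPM, a log2 fold change of 0.19 (SE 0.08, adjusted p = 0.0799), which passed without DMSO replicate 1 (0.28, adjusted p = 0.000430). PCIF1 went from 34.2 and 34.8 to 30.1 and 27.6 CPM (log2 fold change -0.25, adjusted p = 0.0583), and TRMT112 from 29.5 and 26.0 to 23.6 and 22.4 CPM (log2 fold change -0.26, adjusted p = 0.0747). Scaling by library totals alone moved the median of all genes by -0.13 on the log2 scale and the share of higher among called genes from 51.2% to 34.9%. PCIF1 and TRMT112 were then called lower as well (adjusted p = 0.00847 and 0.0128), and no member changed sign under any scaling. In these bulk samples, fewer cells with a transcript and less of it per cell cannot be told apart.

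**Figure D5:**
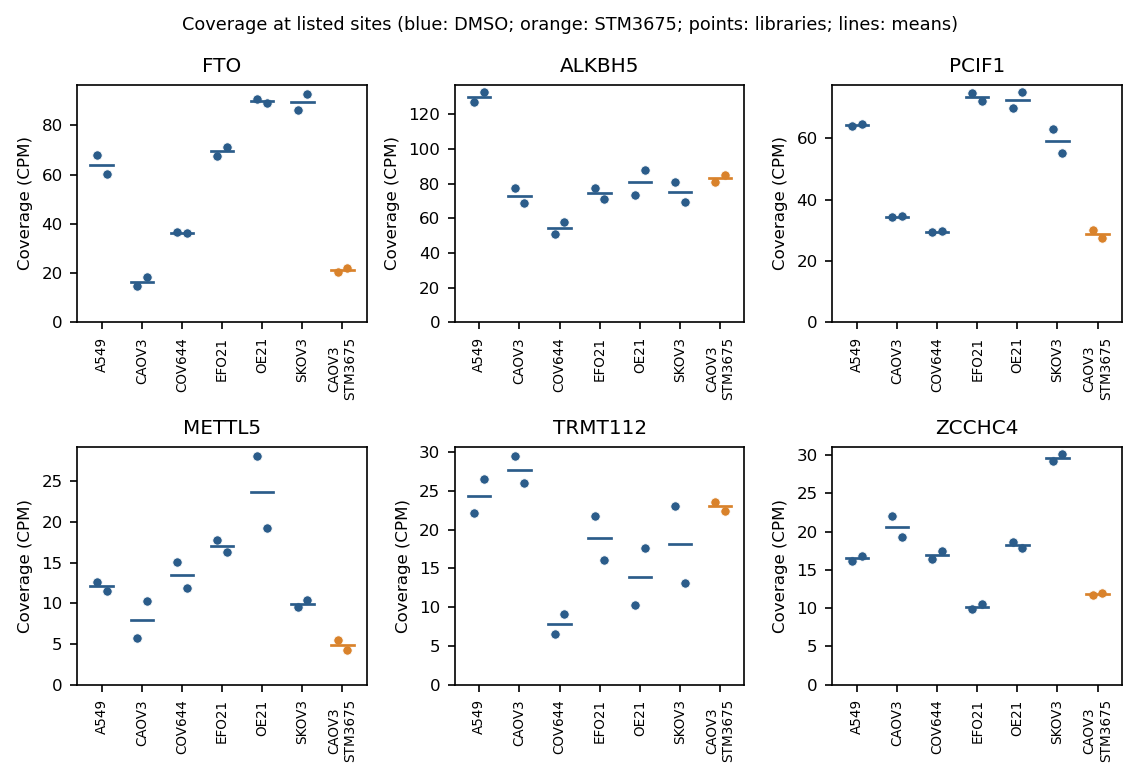
Coverage at listed sites (CPM, linear axis from 0) of the 6 genes in each of the 14 libraries, by cell line. Points are libraries, lines are means, blue is DMSO and orange is CAOV3 with STM3675. FTO spans 14.6 to 92.8 CPM over the DMSO libraries, and ZCCHC4 in CAOV3 drops from 22.0 and 19.3 CPM with DMSO to 11.7 and 11.9 CPM with STM3675.

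Related genes were counted from 4 lists, of which 2 share ALKBH8. All 14 listed writers and readers of m6A were called lower in the level summed over DRACH sites, with a median difference of -38.4 percentage points, against -35.2 over all genes, of which 88.4% were called lower. The median over the 4 members with DRACH sites was -22.5. In coverage, 12 of the 14 writers and readers rose and 1 fell, against 27.0% higher and 25.7% lower of all genes, with a median log2 fold change of 0.54, against -0.01 over all genes and -0.26 over the 6 members. WTAP, a subunit of the methyltransferase complex, rose by 1.96 (SE 0.07), the reader YTHDF2 rose by 1.53 (SE 0.07), and the reader YTHDC2 fell by 0.24 (SE 0.09). METTL3 itself had a log2 fold change of 0.13 (adjusted p = 0.338).

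All 7 other AlkB dioxygenases were called lower in m6A over DRACH sites, as were 88.4% of all genes. ALKBH4 went from 80.4% to 13.0%. In coverage, where 27.0% of all genes were called higher and 25.7% lower, ALKBH1, ALKBH4 and ALKBH8 rose and ALKBH3 (log2 fold change -0.64) and ALKBH6 (-0.48) fell. Of the other partners of TRMT112, 5 of 6 were lower in m6A, and BUD23, which modifies the small ribosomal subunit, was not, at 7.20% against 8.68% (adjusted p = 0.506). In coverage 3 of them rose (THUMPD2, THUMPD3 and ALKBH8) and N6AMT1 fell (log2 fold change -0.43). The last list held methyltransferases of tRNA or the cap and partner subunits of them. All 8 of its genes were lower in m6A, again beside 88.4% of all genes. In coverage CMTR2, TRMT10C and TRMT61B rose, 3 of 8 beside 27.0% of all genes. TRMT6 was the nearest to a fall (log2 fold change -0.20, adjusted p = 0.0530).

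The genes most like each member in coverage over the 14 libraries were found by Pearson's r of log2(CPM + 1) among 13729 genes. These values are descriptions, as the libraries fall into lines and share their depth. For FTO they were IRX3 (r = 0.979), whose gene lies 161.4 kb beyond the end of FTO on the same chromosome in RefSeq (GRCh38.p14), and NOCT (0.974). IRX3, a homeobox factor, had 9.0 CPM in OE21, 6.6 in SKOV3 and 0.05 in CAOV3, from 4 listed sites. For ALKBH5 they were EPHB2 (0.955) and EFTUD2 (0.937), for PCIF1 CASC3 (0.983) and ABCA1 (0.979), and for METTL5 FAM72B (0.964) and S100A11 (0.962). FAM72B has near-identical copies, so its reads are uncertain. For TRMT112 they were ARFGAP1 (0.951) and MRPL27 (0.946), and for ZCCHC4 CASKIN2 (0.952) and AMMECR1 (0.941).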

How the data were processed

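GLORI was run on polyadenylated RNA of 14 libraries. The submitters' processing notes name cutadapt, STAR and GRCh38; the tool that called sites and all versions were not given in the sources used here. For each library the authors deposited, at every site, the count of A and G reads and the fraction of A among them. A counts were recovered whole within 1e-06. The D columns were taken to hold DMSO and the T columns STM3675. Whether duplicate reads had been removed is not stated, so counting errors are lower limits.

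Sites with 20 reads in all libraries compared were tested with a quasi-binomial logistic model in R 4.3.3, with the dispersion moderated by limma 3.58.1 and floored at 1, over all sites or genes, with a Benjamini-Hochberg threshold of 0.05. Moderation gave 1 common dispersion (1.67 in CAOV3, 1.71 over lines), so sites of larger spread are called too readily. Gene levels sum tested sites. Coverage was tested with edgeR 4.0.16 (TMM, quasi-likelihood), and a read counts once per listed site it covers. DESeq2 1.42.0 and limma on log2 odds (pseudocount 0.5) were alternatives. The code was tested on simulated data, where few sites were lowered and most of these were missed at the threshold. The number of recovered sites required by this check was reduced after its first run. The simulation lowered a far smaller share of sites than the 35.2% called lower in CAOV3, which makes the adjusted threshold stricter. Its misses are therefore no measure of the power in these data. A site that did not pass may still differ. Tables and figures used data.table (1.17.8), Python 3.11.15, pandas 2.3.3, scipy 1.17.1 and matplotlib 3.10.9.

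The members and lists were chosen with earlier results of these data known. Sites named per gene were up to 4 tested DRACH sites highest in CAOV3 with DMSO, the fallen site with the highest level left, sites that rose, sites outside DRACH at 50% or more, up to 2 called sites with the largest range over lines, and all tested sites of members with 5 or fewer. Others are named as chosen later, or were all fallen or called sites. The 5 bases equalled the RefSeq promoter letters (GRCh38.p14) at 1940 of 1940 first-exon sites that could be compared.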

Additional observations from a re-analysis of the deposited data

How the results depend on the processing

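Replicate numbers did not pair the libraries: same-numbered libraries correlated between -0.03 and 0.02 in level and -0.32 and 0.34 in coverage. With the replicate block, 4 of the 9 fallen CAOV3 sites were called. The block gave 3 members for CAOV3 coverage and moved no other count beyond 1.5 times. In CAOV3 the 9 sites became 4 with a minimum of 50 reads and 5 with the background outside DRACH subtracted, and 5 to 6 when 1 library was left out. The 2 genes of the summed level became 4 with all listed DRACH sites and 1 to 3 when 1 library was left out. Over the lines, the 8 sites became 2 (minimum of 50), 0 (limma, with 10 at an unadjusted p under 0.05), 5 (background subtracted) and 1 (A549, CAOV3, EFO21 and SKOV3 only), and 4 to 11 when 1 library was left out, with 4 without COV644 replicate 1. The 3 genes of the summed level over lines became 5 (minimum of 10), 0 (minimum of 50), 0 (background subtracted), 0 (those 4 lines), 0 (tested DRACH sites only) and 1 (all listed DRACH sites), and 2 to 4 when 1 library was left out. Of these settings with 0 in the quasi-binomial model, an unadjusted p under 0.05 was reached by 0, 0, 1 and 1 members in that order. The 2 members of CAOV3 coverage became 1 (DESeq2), 4 (library totals only) and 1 (the site with the most reads), and 1 to 4 when 1 library was left out. All 6 stayed called in coverage over lines under every alternative run. No call changed sign. Fewer sites or libraries enter under the minimum of 50 and the left-out settings, and otherwise the cause was not tested. With 2 libraries a group and often under 20 reads at FTO, PCIF1 and ZCCHC4 sites in CAOV3, depth limits the site test there.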
